A study of Mus musculus and Homo sapiens with 18 samples.

Results

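The respiratory chain subunits described here are 101 of the 21629 protein-coding mouse genes in the deposited tables, chosen by symbol (Nduf, Sdh, Uqcr, Cox4 to Cox8, Atp5 and the mt- genes). Of these, 88 are encoded in the nucleus and 13 on mitochondrial DNA. The nuclear genes comprise 39 of complex I, 4 of complex II, 8 of complex III, 19 of complex IV and 18 of complex V. The mitochondrial genes comprise 7 of complex I, 1 of complex III, 3 of complex IV and 2 of complex V. The choice used names only and no measured value.

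Poly(A)-selected RNA of mouse bladder carcinoma was compared in 4 groups of 3 libraries each. Control tumours and relapsed tumours came from a genetically engineered mouse model (GEMM), and the labels give chemotherapy with cisplatin and gemcitabine as the treatment of the relapsed ones. The other groups were the mouse line CUUC-G carrying a scrambled guide (sgScr) and the same line with Igfbp5 targeted (sgIgfbp5). Igfbp5 encodes one of the secreted carriers of insulin-like growth factors. In the labels, titles call the targeted libraries knockdowns while the series' design text calls the line a knockout, and they give neither strain, age, alleles nor clone number. They also do not say whether the libraries of a group came from separate animals or cultures, so p-values measure the spread between libraries, which may be technical.

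The respiratory chain passes electrons from NADH and succinate through complexes I and II, ubiquinone, complex III and cytochrome c to oxygen at complex IV, and complex V (ATP synthase) uses the resulting proton gradient to make ATP. All complexes except II join subunits from both genomes. The mitochondrial messages arise by cleavage of long transcripts that span nearly the whole mitochondrial genome, whereas each nuclear subunit has its own promoter. Several complex IV subunits exist as isoforms that replace each other by tissue or by oxygen supply.

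Library depth ran from 18964942 to 21757109 estimated counts. Across 13904 genes tested in both comparisons, the group means of relapsed tumours and CUUC-G sgScr had a Pearson r of 0.996 over genes on the log2 CPM scale (counts scaled to library size), with 0.28% of genes at least 2-fold apart, against r = 0.914 between control and relapsed tumours. The tables of tumours and line were scaled separately and genes are not replicates, so this is a description. The Y-linked gene Ddx3y was at 69.8 to 77.7 CPM in control tumours and 0 in every library of the other 3 groups, and Xist was at 0.0456 to 0.158 CPM in control and 460 to 496 CPM in relapsed tumours. Control and relapsed tumours thus differed in sex-linked RNA as well as in treatment, and these cannot be told apart. Of the urothelial markers, Krt5 and Upk3a were at 0 in all 4 groups. Summed epithelial markers were 24.9 to 32.3 CPM in control and 616 to 642 CPM in relapsed tumours, and 663 to 746 CPM in sgScr and 141 to 168 CPM in sgIgfbp5 libraries. Summed fibroblast markers were 16400 to 16900, 8010 to 8170, 8460 to 8950 and 3540 to 4000 CPM in the same order. Nearly all of this was Col1a1 and Col1a2 (means of 9940 and 6570 CPM in control and 5480 and 2340 CPM in relapsed tumours). In relapse Pdgfrb was lower too, but Pdgfra (11.2 to 108 CPM), Dcn (83.3 to 105 CPM) and Lum (0.218 to 1.11 CPM) were higher. With sgIgfbp5 Pdgfrb was higher (35.0 to 45.9 CPM) and the other genes of this list were lower. In the epithelial list Gata3 and Upk1a went against the sum in both comparisons. Mean Gata3 was 15.5 CPM in control and 1.69 CPM in relapsed tumours, and 1.52 CPM with sgScr and 15.6 CPM with sgIgfbp5. Mean Upk1a was 0.558, 0.379, 0.376 and 1.22 CPM in these groups. Trp63 was also higher with sgIgfbp5 (0.843 to 1.17 CPM), and no other gene of the epithelial list went against its sum. The part of these differences in the results below was not tested, and in bulk RNA fewer cells of a type and less RNA per cell cannot be told apart. Igfbp5 itself was low throughout, at 0.182 to 0.894 CPM in control and 1.8 to 3.19 CPM in relapsed tumours, and at 1.04 to 2.56 CPM in sgScr and 0.393 to 0.606 CPM in sgIgfbp5 libraries.

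Per unit of transcript length, the mitochondrial messages were by far the more abundant. In control tumours the median nuclear gene of complex I had 121 TPM (a transcript level scaled by length), that of complex IV 175 TPM and that of complex V 392 TPM. The median mitochondrial gene of complex I had 2990 TPM and that of complex IV 13000 TPM. The 13 mitochondrial genes took 2.86% to 3.27% of all counts in control and 2.69% to 2.70% in relapsed tumours, and the groups did not overlap. In CUUC-G the same share was 2.18% to 2.23% with sgScr and 2.02% to 2.68% with sgIgfbp5, so the sgIgfbp5 libraries lay on both sides of the sgScr libraries. The 88 nuclear genes took 0.634% to 0.669% of counts in control and 0.726% to 0.735% in relapsed tumours. They took 0.775% to 0.931% with sgScr and 1.02% to 1.17% with sgIgfbp5. The nuclear share was thus higher in every relapsed library and in every sgIgfbp5 library than in any library of its control group.

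**Figure D1:**
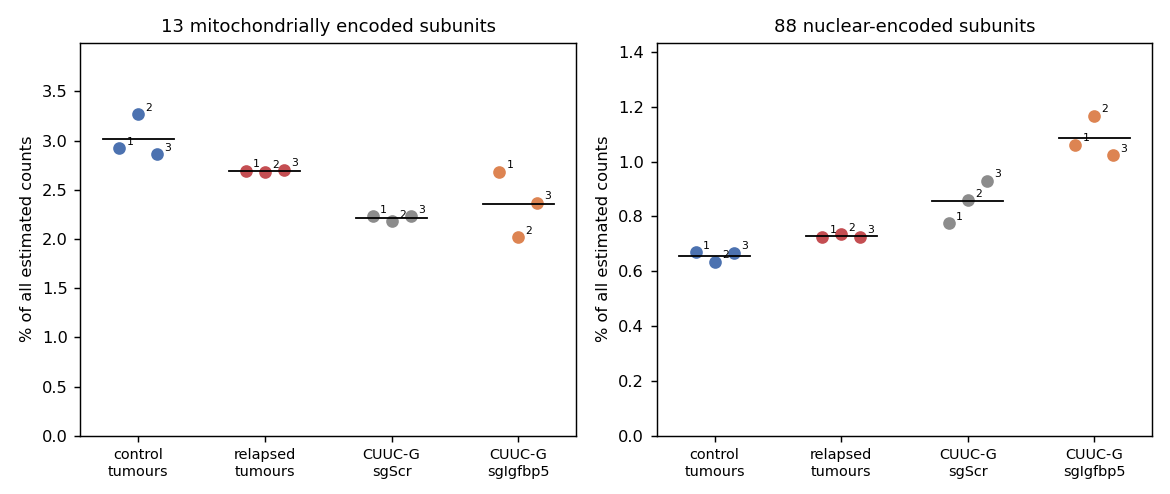
Share of all estimated counts (percent, y axis) taken by the 13 mitochondrially encoded (left) and the 88 nuclear-encoded subunits (right) in each library; bars are group means and small numbers are replicate numbers. The nuclear share of every relapsed and every sgIgfbp5 library lies above its controls, while the mitochondrial share of sgIgfbp5 libraries spreads from 2.02% to 2.68%.

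In relapsed against control tumours, more nuclear subunits rose than fell, mostly by small amounts. Of 81 nuclear genes above the low-count filter, 46 rose and 20 fell, and 15 missed the threshold (edgeR's quasi-likelihood test, adjusted p under 0.05 over all genes). Over all 14373 genes tested, 36.6% rose and 36.9% fell (73.5% together). The median log2 fold change was 0.19 for the nuclear subunits and 0.00 for all genes. Changes under 1.5-fold made up 72.8% of the nuclear subunits against 54.7% of all genes, and 4 subunits rose and 3 fell by at least 2-fold, where 25.2% of all genes changed that much. The number that rose was lower on the length-scaled TPM values, where limma called 29 (main comparison 46) with a median of 0.07. Mean summed TPM of the nuclear subunits was higher in relapse for complexes V (7470 to 8960) and II (478 to 499). It was lower for complexes III (2310 to 2210) and IV (4180 to 4000), and for complex I (5690 to 5630) with overlapping groups.

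In sgIgfbp5 against sgScr, 31 of 80 nuclear subunits rose, 14 fell and 35 missed the threshold, while 36.5% of all 14553 genes rose and 34.3% fell (70.8% together). The median log2 fold change was 0.13 for nuclear subunits and 0.06 for all genes. At least 2-fold changes were seen for 6 that rose and 2 that fell, against 31.3% of all genes. With library size alone as the scaling, the median of all genes moved by 0.11 and the split became 40 higher and 11 lower. The sgScr libraries differed among themselves for these genes: replicate 1 was the lowest of its group for 65 of the 80 nuclear subunits and replicate 3 the highest for 71. The count of risen subunits was 38 without sgScr replicate 3 and 21 without sgIgfbp5 replicate 2.

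**Figure D2:**
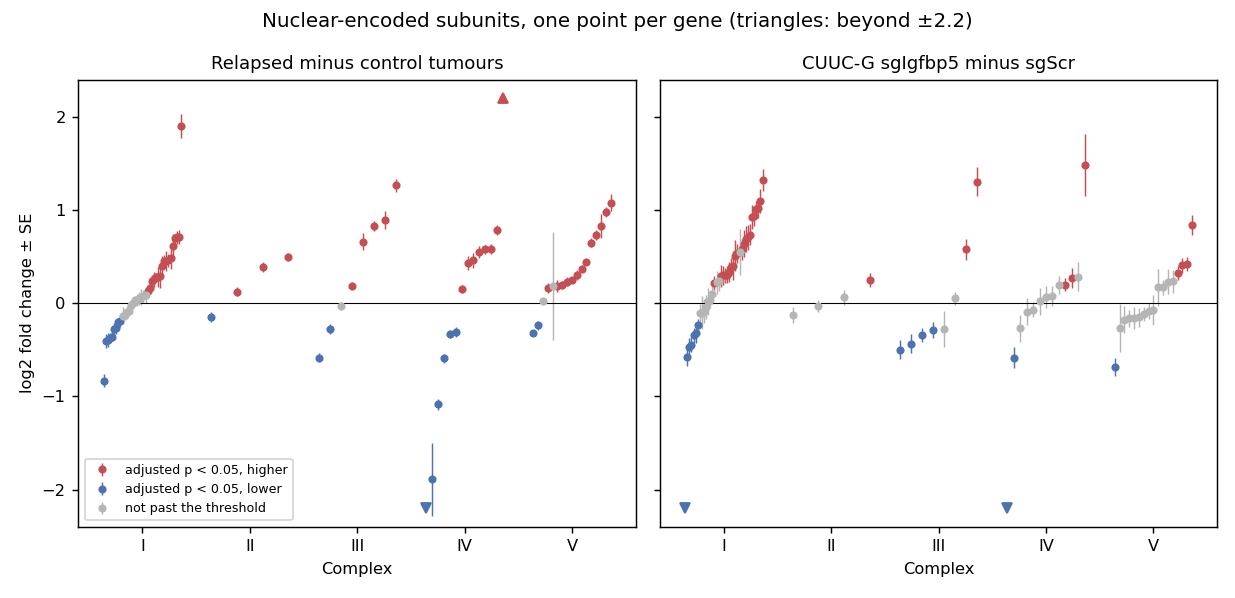
Log2 fold change with its standard error (y axis) of each tested nuclear subunit, ordered within complexes I to V (x axis), for relapsed minus control tumours (left) and sgIgfbp5 minus sgScr (right); colours give the edgeR call and triangles mark genes beyond 2.2. Complex V lies mostly above 0 in relapsed tumours, with 13 of 17 genes higher, and complex I has the most risen genes with sgIgfbp5, 21 of 38.

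The complexes differed in how many nuclear subunits moved. In relapsed tumours, complex I had 17 nuclear subunits higher, 9 lower and 12 not past the threshold, complex III had 5 higher and 2 lower of 8, complex IV had 8 higher and 6 lower of 14, and complex V had 13 higher and 2 lower of 17. With sgIgfbp5, complex I had 21 higher and 7 lower of 38, complex III had 2 higher and 4 lower of 8, complex IV had 3 higher and 2 lower of 13, and complex V had 4 higher and 1 lower of 17. These differences between complexes were not tested. Log2 fold changes of the nuclear subunits in relapse ran from -0.83 to 1.90 in complex I, -0.15 to 0.49 in complex II, -0.59 to 1.27 in complex III and -0.32 to 1.08 in complex V. With sgIgfbp5 they ran from -4.31 to 1.32, -0.13 to 0.25, -0.50 to 1.31 and -0.68 to 0.84 in the same order. The range of complex IV is set by low-count isoforms described below.

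Complex I takes electrons from NADH. Nuclear subunits of its catalytic core did not all move the same way. In relapsed tumours Ndufs8, which holds iron-sulfur clusters, rose by 0.28 on the log2 scale and Ndufv2 by 0.16, while Ndufs3 fell by 0.19 and Ndufs7 fell by 0.28. Ndufs1 and Ndufv1 did not pass the threshold (log2 fold changes -0.02 and 0.03). On TPM values Ndufs8, Ndufs3 and Ndufs7 kept these directions without overlap. Ndufv2 overlapped between the groups on TPM (means 129.1 in control and 130.6 in relapsed tumours). Ndufv1 was lower in relapse there without overlap (means 136.6 and 124.4). With sgIgfbp5 the core genes Ndufs3, Ndufs7 and Ndufv1 rose by 0.39, 0.54 and 0.31, and Ndufs1, Ndufs8 and Ndufv2 fell by 0.23, 0.44 and 0.32.

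Ndufa4l2 was the gene placed with complex I that had the largest change in both comparisons. It is a paralogue of Ndufa4, is known as a target of the hypoxia-inducible factor HIF-1, and lies at chr10:127514967-127517154 (GRCm38, GENCODE M21). Its level was 6.02, 4.84 and 4.48 CPM in the control tumours and 17.8, 18.9 and 20.9 CPM in the relapsed ones. It was 20.69, 21.2 and 20.3 CPM in the sgScr libraries and 0.858, 1.13 and 1.13 CPM in the sgIgfbp5 ones. The groups did not overlap in either comparison. The log2 fold change was 1.90 ± 0.13 (SE, adjusted p = 1.6e-13) in relapsed tumours and -4.31 ± 0.15 (adjusted p = 9.5e-10) with sgIgfbp5. Ndufa4 itself, placed with complex I by its name and now known as a subunit of complex IV, had 54.0 to 58.2 CPM in control and 88.3 to 95.1 CPM in relapsed tumours. It rose by 0.70 ± 0.05 on the log2 scale in relapse (adjusted p = 1.74e-12). In CUUC-G it had 109 to 131 CPM with sgScr and 118 to 134 CPM with sgIgfbp5, overlapping groups with a log2 fold change of 0.03 (adjusted p = 0.732).

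Among the accessory subunits of complex I, Ndufa6 went the other way. This member of the LYR-motif proteins had 43.1, 42.1 and 42.9 CPM in control and 24.3, 23.4 and 24.3 CPM in relapsed tumours. In CUUC-G it had 31.3, 38.8 and 44.4 CPM with sgScr and 95.2, 103 and 88.7 CPM with sgIgfbp5. All relapsed libraries lay below all controls and all sgIgfbp5 libraries above all sgScr ones. The log2 fold changes were -0.83 ± 0.07 (adjusted p = 2.04e-11) and 1.32 ± 0.12 (adjusted p = 2.29e-06). Ndufs5 and Ndufa13 fell in relapse by 0.40 and 0.39 and rose with sgIgfbp5 by 0.92 and 0.69. Ndufa7, Ndufb9 and Ndufa9 were among the largest increases with sgIgfbp5, with log2 fold changes of 1.10, 1.02 and 1.01, and in relapse they fell by 0.36, 0.37 and 0.21. Ndufb10 and Ndufv3, the largest increases among nuclear genes of complex I in relapse after Ndufa4l2, each had a log2 fold change of 0.71, and with sgIgfbp5 they fell by 0.58 and 0.47.

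Complex II, succinate dehydrogenase, also serves the citric acid cycle and is the only complex made wholly from nuclear genes. Sdha, its flavoprotein, had 128.7, 116 and 129 CPM in control and 176, 178 and 175 CPM in relapsed tumours, which did not overlap. It rose by 0.49 ± 0.04 (log2 scale, adjusted p = 3.35e-11). Sdhd, a membrane anchor, rose by 0.39 and the iron-sulfur subunit Sdhb fell by 0.15, a call lost without relapse replicate 2 (-0.12) or 3 (-0.13). The other anchor, Sdhc, rose by 0.12 (adjusted p = 0.0228), a direction that reversed on TPM values (-0.05). Its call was lost without control replicate 1 (0.10) or 3 (0.11) or relapse replicate 1 (0.10). With sgIgfbp5 only Sdhc passed the threshold, with a log2 fold change of 0.25 (adjusted p = 0.0101), lost without sgIgfbp5 replicate 2 (0.16). Sdha, Sdhb and Sdhd were at -0.03, -0.13 and 0.06, and Sdhb passed the threshold without sgIgfbp5 replicate 2 (-0.25). The sign of Sdha in CUUC-G also reversed on TPM values, to 0.27 (limma, adjusted p = 0.0394 with a pseudocount of 1).

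Complex III held 3 of the larger increases in relapse and, in Uqcrq, one of the 6 increases of at least 2-fold with sgIgfbp5. Uqcrh, the hinge protein next to cytochrome c1, lies at chr4:116066965-116075071. It had 26.4, 24.2 and 25.7 CPM in control and 62.4, 63.7 and 57.9 CPM in relapsed tumours. In CUUC-G it had 68.9, 66.8 and 78.8 CPM with sgScr and 50.9, 56.5 and 44.5 CPM with sgIgfbp5. The relapsed libraries were all above the controls and the sgIgfbp5 libraries all below sgScr, with log2 fold changes of 1.27 ± 0.07 (adjusted p = 1.31e-15) and -0.50 ± 0.10 (adjusted p = 0.00107). The small subunit Uqcr11 and the Rieske iron-sulfur protein Uqcrfs1 rose in relapse by 0.89 and 0.83. With sgIgfbp5 Uqcrfs1 fell by 0.34, and Uqcr11 was at -0.27 (adjusted p = 0.233). Uqcrq, known as the ubiquinone-binding protein QP-C, had 119, 114 and 122.5 CPM in control and 79.1, 82.9 and 75.2 CPM in relapsed tumours. It had 105, 141 and 168 CPM with sgScr and 326, 383 and 316 CPM with sgIgfbp5. Neither pair of groups overlapped, and the log2 fold changes were -0.59 ± 0.05 and 1.31 ± 0.15 (adjusted p = 8.58e-12 and 3.53e-05). Uqcr10 followed Uqcrq in sign, falling by 0.28 in relapse and rising by 0.58 with sgIgfbp5, and the core protein Uqcrc2 passed the threshold in neither (-0.03 and 0.05).

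Complex IV, cytochrome c oxidase, had its largest changes in isoforms. Cox4i1 is the general form of subunit IV and Cox4i2 a form known to be induced at low oxygen through HIF-1. Cox4i1 had 179, 172 and 199 CPM in control and 117, 128 and 120 CPM in relapsed tumours, without overlap, and fell by 0.59 ± 0.05 on the log2 scale (adjusted p = 2.29e-10). With sgIgfbp5 its libraries overlapped those of sgScr (177 to 212 against 143 to 181 CPM), with a log2 fold change of 0.20 (adjusted p = 0.104). Cox4i2 was near the detection limit, with 5 counts over the control and 51 over the relapsed libraries. This is a ratio of 10.3 (exact binomial 95% interval 4.12 to 32.9, counting error only). Each relapsed library, at 0.647 to 1.10 CPM, lay above each control, at 0 to 0.182 CPM, and the adjusted p was 0.000157. In CUUC-G its counts summed to 65 with sgScr and to 0 with sgIgfbp5, at least 23.1-fold lower when 3 counts per group are taken as the floor (adjusted p = 0.00013).

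The form of subunit VIa found in most tissues, Cox6a1, and the muscle form, Cox6a2, both fell in relapse. Cox6a1 had 117, 113 and 135 CPM in control and 55.5, 58.7 and 57.9 CPM in relapsed tumours, a log2 fold change of -1.08 ± 0.06 (adjusted p = 3.51e-14) with no overlap. With sgIgfbp5 it was at 0.02 (adjusted p = 0.902), with 85.5 to 108 CPM against 74.6 to 115 CPM in sgScr. Cox6a2 was low, with 143 counts over the control and 38 over the relapsed libraries, 3.74-fold fewer after scaling (95% interval 2.6 to 5.51). With sgIgfbp5 it rose from 40 to 120 counts, a ratio of 2.82 (1.96 to 4.14). Its adjusted p was 8.9e-05 and 0.00178. Summed striated muscle markers were 17.6 to 19.6 CPM in control tumours, nearly all from Acta1 with Myh1 and Myl1 at 0, and 0.747 to 0.98 CPM in relapsed ones. They were 0.377 to 0.853 CPM with sgScr and 0.295 to 0.705 CPM with sgIgfbp5, where Cox6a2 was higher. Their part in the relapse result was not tested.

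**Figure D3:**
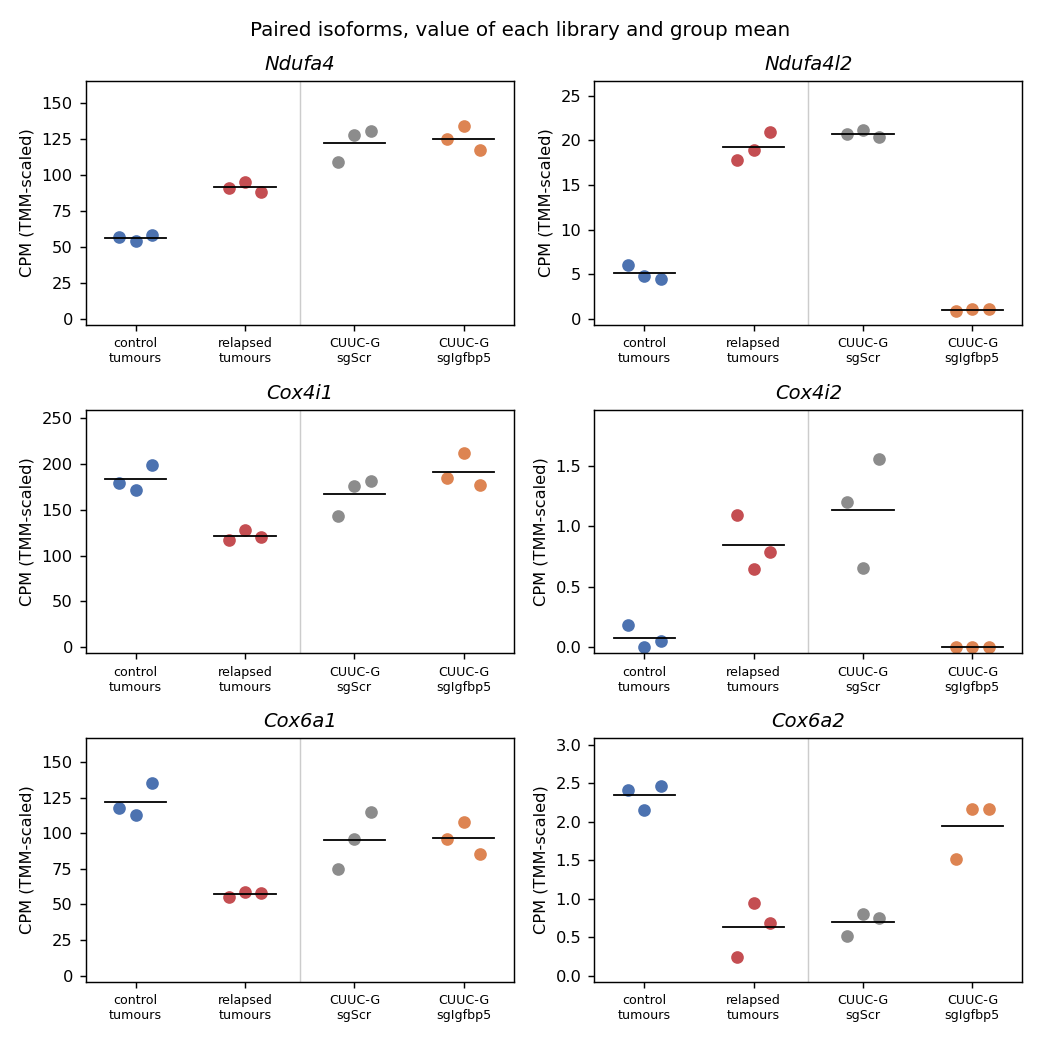
CPM (y axis, TMM-scaled, separately for tumours and line) of paired isoforms in each library of the 4 groups; horizontal bars are group means. Ndufa4l2 and Cox4i2 are high in relapsed tumours and sgScr and low in control tumours and sgIgfbp5, whereas Cox6a2 shows the opposite order and Cox4i1 and Cox6a1 are lowest in relapsed tumours.

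The remaining complex IV isoforms were mostly single-form. Cox8a rose by 0.79 in relapse and was at -0.09 with sgIgfbp5 (adjusted p = 0.599, and -0.26 and past the threshold without sgScr replicate 1), while Cox8b and Cox8c, the forms of striated muscle and testis, had no count in any library. Cox7a2, the general form of subunit VIIa, rose by 0.58 in relapse, and Cox7a2l, which helps complexes III and IV join, fell by 0.33. With sgIgfbp5 Cox7a2 was at -0.07 (adjusted p = 0.441) and Cox7a2l rose by 0.20 (adjusted p = 0.0216). The Cox7a2l call was lost without any 1 library (0.13 to 0.22) except sgScr replicate 3. The muscle form Cox7a1 was too low to be tested, with 5 counts in each tumour group and with 32 counts for sgScr against 12 for sgIgfbp5, 2.84-fold fewer (95% interval 1.42 to 6.05). Cox7c, a small subunit without isoforms, rose by 0.58 in relapse and was at -0.27 with sgIgfbp5 (adjusted p = 0.121). Cox6b1 rose by 0.55 in relapse and was at 0.07 with sgIgfbp5, and its testis form Cox6b2 went from 57 to 9 counts in relapse (6.3-fold fewer, 3.1 to 14.5). Cox7b rose by 0.43 and fell by 0.58 in the respective comparisons, and Cox7b2 had 2 counts in all tumour libraries and none in CUUC-G.

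In complex V most tested nuclear subunits rose in relapse. By counts the catalytic subunits Atp5a1 (alpha) and Atp5b (beta) rose in both comparisons, Atp5a1 by 0.45 and 0.32 and Atp5b by 0.25 and 0.41 on the log2 scale. On TPM values Atp5b was not higher in relapse, with overlapping groups (mean 1275 in control and 1245 in relapsed tumours). Atp5a1 had 533, 523 and 535 CPM in control and 727, 720 and 721 CPM in relapsed tumours, and 744 to 799 CPM with sgScr against 941 to 1036 CPM with sgIgfbp5. Neither comparison overlapped for it. The central stalk subunit Atp5c1 fell by 0.32 in relapse and rose by 0.42 with sgIgfbp5. The largest increases in relapse were small membrane subunits. Atp5mpl had 18.4, 17.8 and 20.0 CPM in control and 34.4, 44.6 and 40.0 CPM in relapsed tumours, without overlap (log2 fold change 1.08 ± 0.09, adjusted p = 1.83e-11), followed by Atp5j2 with 0.98 and Atp5k with 0.83. With sgIgfbp5 these 3 did not pass the threshold (-0.17, -0.16 and -0.27). The single nuclear complex V subunit that fell with sgIgfbp5 was Atp5j, coupling factor 6, by 0.68, and it had risen by 0.65 in relapse.

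The rotor ring of complex V is built from one protein encoded by Atp5g1, Atp5g2 and Atp5g3. Atp5g1 fell by 0.24 in relapse and rose by 0.84 with sgIgfbp5 (adjusted p = 6.2e-05 and 3.1e-05). Atp5g3 rose by 0.37 in relapse and was at -0.08 with sgIgfbp5. Atp5g2 cannot be read alone, because 95.9% of the joint counts in tumours and 93.2% in CUUC-G were assigned to Gm10175, annotated without a protein-coding transcript and identical to Atp5g2 over 645 aligned bases. Alone it passed neither test (0.18 and -0.08). With the copy added it was at -0.13 in relapse (adjusted p = 0.00953) and 0.48 with sgIgfbp5 (adjusted p = 0.00049). For Ndufb4, 51.8% and 58.2% of joint counts likewise lay with near-identical copies.

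The mitochondrial genes did not move as one. In relapsed tumours 2 of the 13 rose, 6 fell and 5 did not pass the threshold, with a median log2 fold change of -0.15. That is 61.5% called, against 73.5% of all genes (36.6% higher, 36.9% lower). The risen genes were mt-Nd1 and mt-Nd2, which encode complex I subunits and are the first of the 13 after the ribosomal RNAs. The fallen genes were mt-Co1, mt-Co2 and mt-Co3, the catalytic core of complex IV, mt-Cytb of complex III, and mt-Nd4l and mt-Nd6 of complex I. None of the 13 changed by 2-fold. Control replicate 2 was the highest of its group for 12 of the 13, and without it 4 genes were called higher, mt-Nd3 (0.16) and mt-Atp6 (0.17) being added.

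mt-Nd1 (chrM:2751-3707) had 1481, 1630 and 1429 CPM in control and 2465, 2486 and 2511 CPM in relapsed tumours. In CUUC-G it had 2161, 2159 and 2264 CPM with sgScr and 1506, 1084 and 1238 CPM with sgIgfbp5. It was thus higher in all relapsed and lower in all sgIgfbp5 libraries, with log2 fold changes of 0.72 ± 0.04 (adjusted p = 7.6e-10) and -0.78 ± 0.11 (adjusted p = 6.27e-05). Within the summed counts of the 13 genes, mt-Nd1 took 5.05% ± 0.0565 (SD, n = 3) in control and 9.16% ± 0.0665 in relapsed tumours. It took 9.53% ± 0.168 with sgScr and 5.61% ± 0.158 with sgIgfbp5. Both the level and the share therefore lay apart, without overlap, between the groups of each comparison. A share without overlap was common: in relapse only those of mt-Co2, mt-Atp8, mt-Nd4, mt-Nd4l and mt-Nd6 overlapped among the 13.

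mt-Nd2, next along the genome, had 826, 940 and 806 CPM in control and 1159, 1150 and 1162 CPM in relapsed tumours, a log2 fold change of 0.43 ± 0.05 (adjusted p = 2.85e-05). With sgIgfbp5 it was at -0.14 with overlapping groups (adjusted p = 0.187), or -0.26 and past the threshold without sgIgfbp5 replicate 1. mt-Co1, the most abundant mitochondrial message by counts, had 10120, 11380 and 10380 CPM in control and 8051, 8016 and 7973 CPM in relapsed tumours. It fell by 0.41 ± 0.04 (adjusted p = 5.07e-06), and its share of the mitochondrial counts was 35.5% ± 0.926 (SD, n = 3) in control against 29.5% ± 0.225 in relapse. mt-Cytb fell by 0.35, and mt-Co2 by 0.15. mt-Nd4l and mt-Nd6, the gene on the other strand, each fell by 0.23, and mt-Co3 fell by 0.10. The mt-Nd6 call was lost without control replicate 1 (-0.26) or relapse replicate 2 (-0.24) or 3 (-0.19), and the mt-Co3 call without relapse replicate 1 (-0.10) or 2 (-0.09). mt-Nd3, mt-Nd4, mt-Nd5, mt-Atp6 and mt-Atp8 did not pass the threshold (0.09, -0.10, -0.25, 0.08 and -0.73), and the mt-Atp8 value had an SE of 0.33. mt-Nd4 and mt-Nd5 passed it without control replicate 3 (-0.18 and -0.33), and mt-Nd5 also without control replicate 2 (-0.17). Of 19 alternative fits, mt-Nd5 kept its side of the threshold in only 9, and its CPM values did not overlap between the groups. It was called lower with DESeq2, with library size alone and on TPM values, among others. mt-Atp8 and mt-Nd4 each kept their side in 16 of 19, and both were called lower by limma on log2(TPM + 1). The genes mt-Nd4l and mt-Nd4 overlap in position, as do mt-Atp8 and mt-Atp6. How counts were divided within each pair was not tested.

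With sgIgfbp5, 2 mitochondrial genes rose and 3 fell, while 8 missed the threshold, with a median of -0.06. That is 38.5% called, against 70.8% of all genes (36.5% higher, 34.3% lower). mt-Nd1 is given above. mt-Co2 fell by 0.39 (adjusted p = 0.00748), from 2685, 2732 and 2939 CPM to 2512, 1826 and 2046 CPM, and mt-Atp8 fell by 0.42 (adjusted p = 0.0349). mt-Co1 and mt-Cytb rose by 0.21 and 0.29 (adjusted p = 0.0355 and 0.0422). sgIgfbp5 replicate 1 was the highest and replicate 2 the lowest of its group for all 13 genes, with median deviations from the group mean of 0.25 and -0.27 on the log2 scale. Between 2 and 8 of the 13 were called when single libraries were left out, and the split of 2 higher and 3 lower became 0 and 4 under RLE scaling and 4 and 2 with library size alone. The calls of mt-Co1 (0.13 to 0.21) and mt-Cytb (0.14 to 0.30) were lost without any 1 library except sgIgfbp5 replicate 2. Without that library 4 genes were called higher, including mt-Nd4 (0.23) and mt-Nd4l (0.36). The mt-Atp8 call was lost without sgScr replicate 1 (-0.36) or 2 (-0.37). Without sgScr replicate 3, mt-Nd3 was called higher (0.47). mt-Atp6 was called lower without sgIgfbp5 replicate 1 (-0.48) or 2 (-0.21), and mt-Nd6 without sgIgfbp5 replicate 1 (-0.27). As a share of the mitochondrial counts, mt-Co1 took 30.4% ± 0.622 (SD, n = 3) with sgScr and 35.7% ± 2.15 with sgIgfbp5, and mt-Cytb 8.09% ± 0.0654 and 9.98% ± 0.413. mt-Co2 took 12.1% ± 0.481 and 9.36% ± 0.296. None of these 3 shares overlapped between the groups, and of all 13 only those of mt-Nd3, mt-Nd5 and mt-Nd6 did. The shares are parts of one total, so they are not independent of each other. Adding the nuclear copy of mt-Co1, which held 4.83% of the joint counts, brought mt-Co1 to 0.18 (adjusted p = 0.0612).

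**Figure D4:**
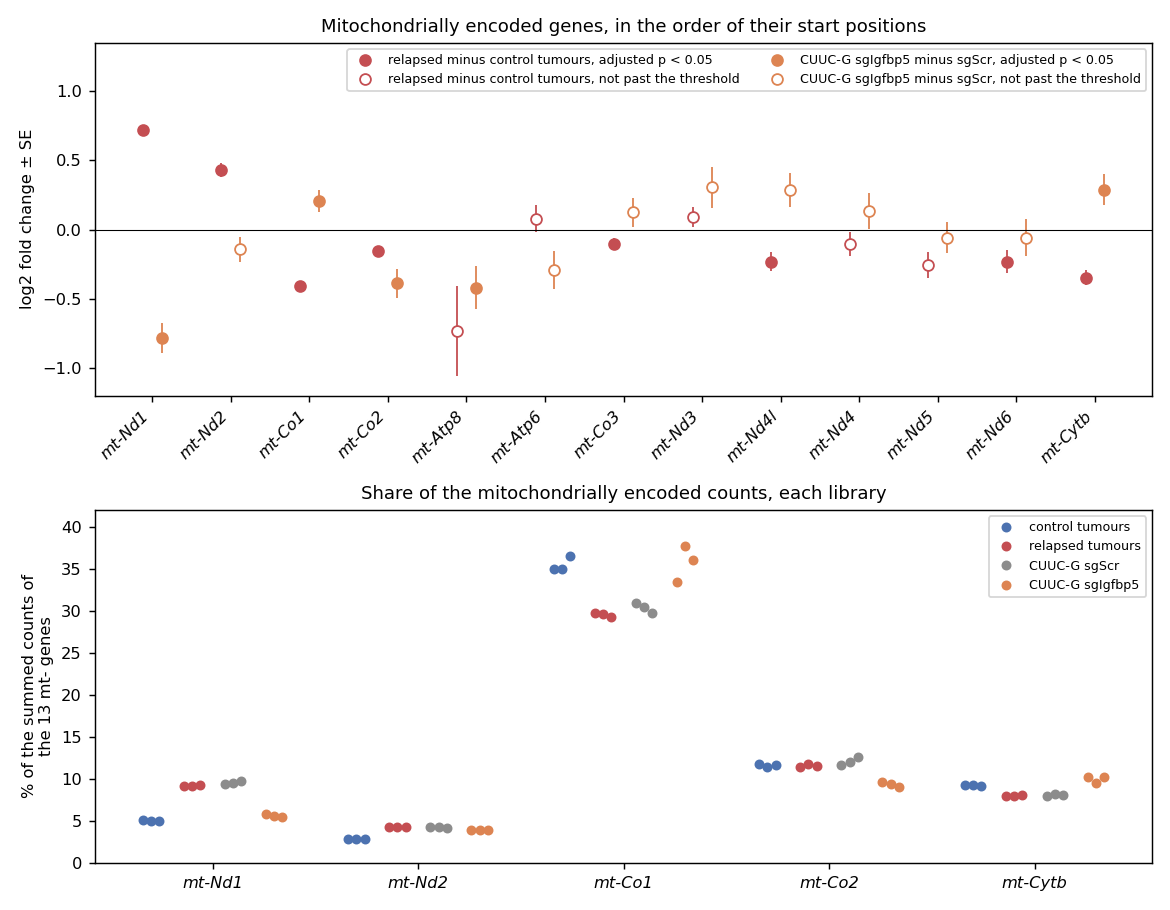
Top, log2 fold change with its standard error of the 13 mitochondrially encoded genes in order of position, for both comparisons, filled where the edgeR adjusted p was under 0.05. Bottom, share (percent) of the summed counts of the 13 genes taken by 5 of them in each library; mt-Nd1 takes about 5.05% in control tumours and 9.16% in relapsed ones, and 9.53% with sgScr against 5.61% with sgIgfbp5.

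The comparisons share no library. However, the relapsed tumours, the treated group of one, and sgScr, the control group of the other, had nearly the same profile (r = 0.996 over genes), so their signs are not independent of each other. The labels do not say how these groups are related. Of the 37 nuclear subunits called in both, 28 (75.7%) had opposite signs, 13 higher in relapse and lower with sgIgfbp5 and 15 the reverse. Of all genes called in both, 83.4% (6625 of 7947) had opposite signs, which is 47.6% of the genes tested in both. The 9 nuclear subunits that rose in both were Atp5a1, Atp5b, Cox5a, Ndufa1, Ndufb11, Ndufb2, Ndufb8, Ndufs6 and Sdhc, and no nuclear subunit fell in both. Of the 4 mitochondrial genes called in both, mt-Nd1, mt-Co1 and mt-Cytb had opposite signs and mt-Co2 fell in both.

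**Figure D5:**
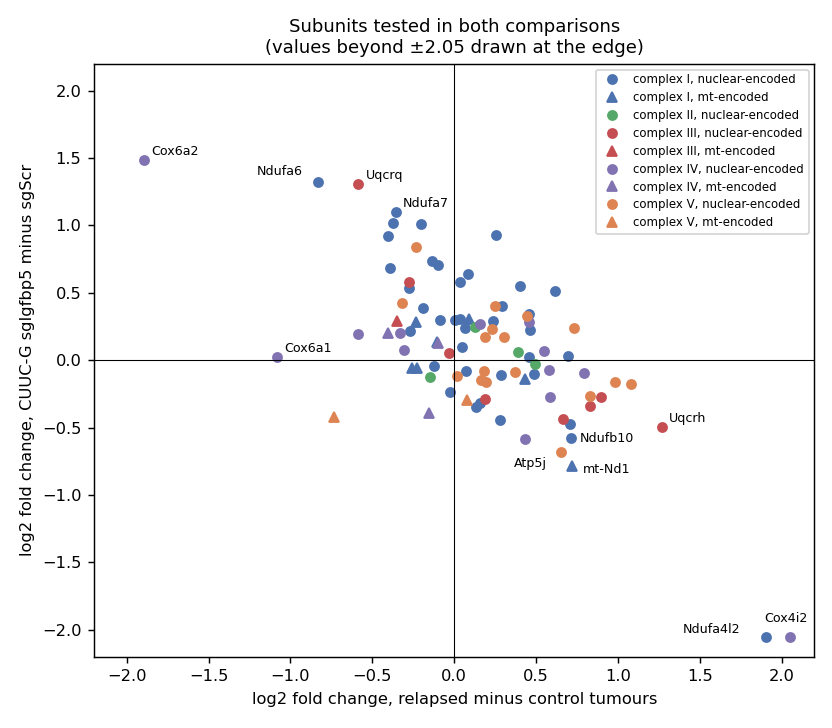
Log2 fold change in relapsed minus control tumours (x axis) against sgIgfbp5 minus sgScr in CUUC-G (y axis) for the 93 subunits tested in both, coloured by complex, with triangles for mitochondrially encoded genes. Ndufa4l2 and Cox4i2, drawn at the edge, lie at lower right with Uqcrh and mt-Nd1, and Cox6a2, Ndufa6, Uqcrq and Ndufa7 lie at upper left.

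Promoters are shown for the members with opposite signs, because each nuclear subunit is transcribed from its own. RefSeq promoters (GRCm38) were matched by symbol for 69 of the 87 nuclear symbols, and the 250 bases before each start were searched on both strands. The motifs were those of NRF1 (GCGC, any base, then TGCGC), ETS factors such as GABP (CCGGAAGT), YY1 (AANATGGC) and HIF (ACGTG). NRF1 and GABP are known regulators of nuclear respiratory genes. The NRF1 motif was in 13 of 69 nuclear subunits (18.8%) and in 4.23% of 27025 genes with a promoter. The ETS motif was in 4.35% against 3.23%, the YY1 motif in 8.7% against 4.49% and the HIF motif in 21.7% against 18.5%. Among the subunits that rose in relapse and fell with sgIgfbp5, 10 of 13 had a promoter, of which 0 held the NRF1, 1 the ETS, 3 the YY1 and 0 the HIF motif. Of those with the reverse signs 12 of 15 had one, of which 2 held the NRF1, 0 the ETS, 2 the YY1 and 2 the HIF motif. These counts were not compared by a test. Cox4i2, Ndufa4l2 and Uqcrb of the first set and Cox6a2, Ndufb9 and Uqcrq of the second had no matched promoter and were not searched. The HIF counts therefore say nothing about Cox4i2 and Ndufa4l2, named above for their link to HIF-1. A match is a description of letters and not a binding site. The stretches below are those parts of the 250 bases that no annotated exon covers, 5′ to 3′ on the gene's strand (the minus strand for all 4), for the members with the largest summed change in each direction among those with a single promoter in the table. Where a gene had several, it was counted if any of them held the motif. Capitals mark matches to the motifs.
Uqcrh chr4:116075072-116075268: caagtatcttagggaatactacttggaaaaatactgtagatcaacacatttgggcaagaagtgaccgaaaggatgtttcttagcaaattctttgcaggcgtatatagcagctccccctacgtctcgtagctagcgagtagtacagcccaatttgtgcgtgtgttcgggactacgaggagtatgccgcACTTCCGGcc
Ndufb10 chr17:24724479-24724673: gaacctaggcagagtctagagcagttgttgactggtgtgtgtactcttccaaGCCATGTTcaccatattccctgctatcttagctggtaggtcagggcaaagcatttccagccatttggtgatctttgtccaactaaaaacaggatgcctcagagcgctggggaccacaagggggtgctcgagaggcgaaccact
Ndufa6 chr15:82354323-82354541: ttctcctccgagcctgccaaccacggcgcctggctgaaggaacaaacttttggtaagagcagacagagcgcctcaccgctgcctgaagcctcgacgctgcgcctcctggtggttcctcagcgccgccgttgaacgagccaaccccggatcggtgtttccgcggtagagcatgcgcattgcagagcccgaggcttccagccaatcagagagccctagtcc
Ndufs5 chr4:123718203-123718436: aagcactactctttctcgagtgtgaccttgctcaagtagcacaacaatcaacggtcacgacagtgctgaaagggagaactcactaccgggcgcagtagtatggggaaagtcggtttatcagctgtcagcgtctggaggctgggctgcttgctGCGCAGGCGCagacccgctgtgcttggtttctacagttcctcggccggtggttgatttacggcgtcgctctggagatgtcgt
The capitals in Uqcrh are an ETS match on the opposite strand, 11 to 4 bases before the start, and those in Ndufb10 a YY1 match on the opposite strand, 198 to 191 bases before it. Those in Ndufs5 are an NRF1 match on the opposite strand, 98 to 89 bases before the start. Ndufa6, whose signs were the same as those of Ndufs5, held none of the 4 motifs in its 250 bases.

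Other genes of the pathway were described through lists that are not members. Beside the counts below, 36.6% of all genes tested rose and 36.9% fell in relapse, and 36.5% rose and 34.3% fell with sgIgfbp5. Assembly factors of complex I, which build but do not stay in it, had 6 of 15 higher and 4 lower in relapse and 5 higher and 7 lower with sgIgfbp5. Those of complexes II to V had 11 of 32 higher and 8 lower in relapse, and 13 of 33 higher and 5 lower with sgIgfbp5. Genes of mitochondrial DNA replication and transcription had 1 of 16 higher (Twnk, the helicase, 0.18) and 11 lower in relapse, with a median of -0.34, and 12 higher and 1 lower (Mterf2, -0.48) with sgIgfbp5, with a median of 0.43. Genes of mitochondrial RNA processing and stability had 3 of 17 higher and 11 lower in relapse, such as Mtpap, the mitochondrial poly(A) polymerase, which fell by 0.67. With sgIgfbp5, 10 were higher and 2 lower. Medians over all genes were 0.00 and 0.06.

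Of the mobile carriers and other proteins of the chain, 4 of 11 rose and 5 fell in relapse. Higd1a, a hypoxia-inducible protein that binds complex IV, had the smallest p among the increases, from 34.6 ± 2.39 to 86.8 ± 4.18 CPM (SD, n = 3; log2 fold change 1.32), and with sgIgfbp5 it fell by 1.08. Cyc1, cytochrome c1, fell by 0.41 in relapse and rose by 0.70 with sgIgfbp5. Coenzyme Q synthesis genes had 4 of 13 higher and 5 lower in relapse, with Coq5 and Coq9 at -1.61 and -1.13, and 5 higher and 3 lower with sgIgfbp5. Of 12 nuclear regulators tested, 6 rose and 4 fell in relapse, and 5 rose and 2 fell with sgIgfbp5. Hif1a rose by 1.07 in relapse and fell by 2.35 with sgIgfbp5, and Myc fell by 0.90 and rose by 1.27. Gabpb1, a subunit of GABP, fell by 0.67 in relapse and rose by 1.04 with sgIgfbp5, while Gabpa, its DNA-binding partner, rose by 0.12 and fell by 0.38. The coactivator Ppargc1a was near 0 in control tumours (mean 0.0168 CPM) and at 1.92 CPM in relapsed ones (adjusted p = 6.86e-09), and with sgIgfbp5 it did not pass the threshold (adjusted p = 0.164). Of 15 glycolysis genes, 14 rose and 1 (Pfkm, -0.66) fell in relapse, with Ldha, lactate dehydrogenase A, at 1.64. With sgIgfbp5 0 rose and 14 fell, with Pfkl, phosphofructokinase, at -2.80. The citric acid cycle list had 6 of 18 higher and 8 lower in relapse and 4 higher and 7 lower with sgIgfbp5. The shares over all genes tested were 36.6% higher and 36.9% lower in relapse, and 36.5% and 34.3% with sgIgfbp5. None of these lists was compared with those shares by a test.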

How the data were processed

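The authors deposited estimated counts and TPM for each library, made with Salmon (version not given in the sources used here) per the submitters' processing notes, which name GRCm38 and GRCh38. The tumour table listed transcripts, which were summed by gene identifier to 55858 genes. The CUUC-G table listed genes, and in 153 values the deposited count was 0 while the TPM was above 0. Estimated counts were rounded. The columns marked mI were taken as sgIgfbp5 because the labels mark the targeted human libraries hI. No column of these tables was left without a sample (0 unmatched). The human line was not analysed here. Libraries were poly(A)-selected and stranded, per the labels' protocols. Strand use in counting and the annotation release are not given in the sources used here, and positions came from GENCODE M21 without identifier versions.

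Each comparison was fitted over all genes with edgeR 4.0.16 in R 4.3.3 (filterByExpr, TMM, robust quasi-likelihood test, two-sided, Benjamini-Hochberg, threshold 0.05), and only the rows of the members are given. The step was also run on simulated counts in which few genes were changed, as many up as down. That run cannot show how the scaling behaves where most genes differ, as in both comparisons here. CPM values use TMM-scaled library sizes. SE came from dividing the size of the log2 fold change by the root of F. Alternatives were DESeq2 1.42.0, limma 3.58.1 on log2(TPM + 1), other scalings and filters, a replicate block and each library left out. Copies were found with blastn 2.17.0 (at least 95% identity over 200 bases) and added as an alternative chosen after seeing the data. The members, lists and tests were chosen with earlier results of these data known. Genes named were all mitochondrial genes, complex II, the isoforms, and per complex up to 3 largest called changes in each direction whose mean log2 CPM was 2 or more and whose groups did not overlap, plus up to 2 genes per list and direction by smallest p. Other genes are named where a small count needs them or, for Ndufb4, Ppargc1a, Gabpa in relapse, catalytic subunits of complexes I and V and Uqcrc2, for their role, chosen after their values were seen. Of the members, 7 nuclear genes in tumours and 8 in CUUC-G failed the filter (Cox5b-ps, Cox7a1, Cox7b2, Cox8b, Cox8c, Ndufb11b, a second Atp5o identifier and, in CUUC-G, Cox6b2). Same-numbered libraries did not deviate together in both comparisons (r 0.0713, 0.0597 and 0.00376 in tumours and 0.0805, 0.176 and -0.404 in CUUC-G). One member is not reported by name here.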

Additional observations from a re-analysis of the deposited data

How the results depend on the processing

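Single genes were followed through the alternatives only for subunits named by the rule above, 47 in relapse and 44 with sgIgfbp5. Other genes given above were not entered, such as Atp5a1 and, in relapse, Atp5b. Of the values entered, 852 of 891 in relapse and 730 of 791 with sgIgfbp5 kept their side of the threshold, leaving aside the fold requirement. Those past the threshold also kept their direction. Values not past it in both fits were counted as kept whatever their sign, as for Cox6a1 with sgIgfbp5 (-0.13 to 0.17). At a fold of at least 2, relapse kept 3623 of all genes (1899 higher, 1724 lower), 7 nuclear (4 and 3) and 0 mitochondrial subunits (0 and 0), and sgIgfbp5 kept 4559 (2118 and 2441), 8 (6 and 2) and 0 (0 and 0). On TPM with limma, risen nuclear subunits in relapse numbered 29 (pseudocount 0.1 or 1) and 27 (no filter), with medians of 0.07026, 0.07 and 0.0697, and all risen genes numbered 3390 and 3438 (pseudocounts 0.1 and 1). The cause was not tested. The mitochondrial share on TPM differed by -1.3 points in relapse and -0.287 with sgIgfbp5 (by counts -0.323 and 0.144). Among the values entered and called in the main or the alternative fit, 3 genes reversed. They were Sdhc in relapse (-0.04613 with pseudocount 0.1 and -0.04578 with 1, with or without a filter), Sdha with sgIgfbp5 (0.2688, 0.2668 and 0.2668), and Atp5g2 with its copy (-0.1287 in relapse and 0.4818 with sgIgfbp5).

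Mitochondrial genes higher with sgIgfbp5, 2 in the main test, were 1 with DESeq2, 0 under RLE, 4 with library size alone, 1 with copies added, 4 without a low-count filter (8 called in all), and on TPM 0, 1 and 0 (pseudocount 0.1, pseudocount 1, no filter; called in all 2, 3 and 1, lower 1 in the last). Leaving out single libraries gave, for relapse, 10132 to 10496 genes called (5032 to 5233 higher, 5090 to 5263 lower), 62 to 65 nuclear subunits (41 to 45 higher, 19 to 22 lower, median 0.1743 to 0.1922), 6 to 11 mitochondrial (2 to 4 higher, 4 to 8 lower, median -0.1948 to -0.1069) and a share difference of -0.401 to -0.198. For sgIgfbp5 it gave 9466 to 10391 genes (4726 to 5177 higher, 4600 to 5358 lower), 38 to 51 nuclear (21 to 38 higher, 13 to 20 lower, median -0.009266 to 0.2073), 2 to 8 mitochondrial (0 to 4 higher, 2 to 6 lower, median -0.1873 to 0.008961) and a share difference of -0.0198 to 0.315. A fit with the replicate number as a block called 10472 genes, 65 nuclear and 10 mitochondrial subunits in relapse, and 10037, 43 and 6 with sgIgfbp5. The numbers were not shown to pair the libraries. Counts per library limit Cox4i2, Cox6a2, Cox6b2 and Cox7a1 most.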
